A study of Mus musculus with 6 samples.

Results

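The genes described here encode enzymes that make, recycle and use glutathione and thioredoxin or that remove superoxide, and 10 such genes were chosen by name (Gclc, Gclm, Gsr, Gpx1, Gpx4, Txnrd1, Srxn1, Hmox1, Sod1 and Sod2). Every probe set annotated to exactly 1 of these symbols was taken, which gave 26 of the 45101 probe sets on the array. Of the 26, 23 exceeded a log2 value of 4 on at least 3 of the 6 arrays and were tested. The single Hmox1 probe set, 1 of 4 Srxn1 probe sets and 1 of 5 Sod1 probe sets did not, so 9 of the 10 genes were tested.

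RNA came from the medial prefrontal cortex of both hemispheres, dissected 2 h after extinction training, which weakens a learned fear by repeating its cue alone. All 6 animals were trained males of 8 to 10 weeks of the inbred mouse strain 129S1/SvImJ. Mice 3, 7 and 11 received a diet labelled ZnR and described as a zinc diet, whose composition the labels do not state, and mice 1, 5 and 9 received the control diet. Each of the 3 ZnR and 3 control mice gave 1 Affymetrix Mouse430_2 array, and precision is limited by that number. Markers of striatal neurons, which go against a purely cortical sample, were bright on all 6 arrays beside cortical ones, with values given among the cell type markers.

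Cells hold glutathione and thioredoxin as stores of reducing power. Glutathione peroxidases and peroxiredoxins spend that power to remove peroxides, and reductases renew it with NADPH. Superoxide dismutases act upstream of them and turn superoxide into hydrogen peroxide. Many of these genes in mice are switched on by the transcription factor Nrf2, which binds antioxidant response elements, and the metal-sensing factor Mtf1 binds metal response elements in response to zinc. In brain, astrocytes are known for strong Nrf2 activity and for supplying neurons with glutathione precursors. Superoxide dismutase 1 itself holds copper and zinc, while superoxide dismutase 2 holds manganese.

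Promoter sequences from RefSeq (build GRCm38.p6) matched 7 of the 10 genes, with 12 start sites among them. Gclc, Gsr and Hmox1 had no entry and were not searched. The 250 bases before each start were searched on both strands for the antioxidant response element core TGACNNNGC, which was found in Gclm, Sod1 and 1 of the 3 Txnrd1 windows. This core occurred in 10.2% of all 32851 promoter windows of that length. The sequences are shown to place these matches to the core of a known regulatory element. Capitals mark the core, which lies on the opposite strand in each.
Gclm (chr3:122245307-122245556, + strand): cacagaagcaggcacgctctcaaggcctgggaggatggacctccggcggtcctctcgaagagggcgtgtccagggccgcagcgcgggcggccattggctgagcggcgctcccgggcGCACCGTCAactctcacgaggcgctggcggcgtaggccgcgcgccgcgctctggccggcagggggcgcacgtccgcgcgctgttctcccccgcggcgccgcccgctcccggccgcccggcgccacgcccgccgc
Txnrd1 (chr10:82858956-82859205, + strand): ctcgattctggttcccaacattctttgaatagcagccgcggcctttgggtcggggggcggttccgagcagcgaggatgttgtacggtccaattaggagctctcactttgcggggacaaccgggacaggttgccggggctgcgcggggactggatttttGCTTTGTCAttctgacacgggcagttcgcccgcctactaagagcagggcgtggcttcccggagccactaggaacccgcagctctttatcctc
Sod1 (chr16:90220512-90220761, + strand): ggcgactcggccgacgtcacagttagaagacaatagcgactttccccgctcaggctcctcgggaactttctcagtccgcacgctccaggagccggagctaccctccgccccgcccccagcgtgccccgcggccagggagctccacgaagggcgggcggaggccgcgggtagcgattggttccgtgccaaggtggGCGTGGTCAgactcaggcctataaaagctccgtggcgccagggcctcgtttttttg
The core spanned bases -134 to -126 from the start in Gclm, -92 to -84 in Txnrd1 and -56 to -48 in Sod1. The metal response element core, spelled TGCACNC or TGCGCNC, was found in Gclm at -138 to -132, where it overlaps the antioxidant core, and at -72 to -66. It was also found in Srxn1 at -19 to -13, and it occurred in 21.4% of all windows. Srxn1 had no TGACNNNGC in its window but held TGAGTCA, the core common to AP-1 and Maf binding sites, at -102 to -96 and at -45 to -39. That motif was searched after the window had been read, and 4.46% of all windows hold it on either strand. Capitals mark both copies in the Srxn1 window.
Srxn1 (chr2:152105274-152105523, + strand): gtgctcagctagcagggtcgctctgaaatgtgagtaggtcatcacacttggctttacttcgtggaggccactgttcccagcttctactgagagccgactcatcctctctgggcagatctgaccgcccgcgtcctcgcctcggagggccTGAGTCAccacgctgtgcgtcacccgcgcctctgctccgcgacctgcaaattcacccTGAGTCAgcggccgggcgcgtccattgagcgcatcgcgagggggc
A match is a description of letters and not a measured binding site, and the reference is of strain C57BL/6J, not of the strain studied.

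None of the 23 tested probe sets passed the test for a difference between diets (limma with Benjamini-Hochberg adjustment over 25381 probe sets, threshold 0.05), where 1.47% of all probe sets passed. The lowest adjusted p was 0.247. At an unadjusted p under 0.05 there was 1 of 23 probe sets, in Srxn1, against 17% of all probe sets. The differences were small, from -0.22 to 0.26 log2 units, with standard errors of 0.08 to 0.17. The 95% intervals, each for 1 probe set alone, together ran from -0.44 to 0.57, which corresponds to ratios of ZnR over control from 0.738 to 1.48. Larger changes lay outside every interval of the 23 tested probe sets. Hmox1 had no interval, and dim probe sets can understate a change, as values near the floor are compressed. These arrays read whole tissue, in which fewer cells of a type and less RNA per cell cannot be told apart.

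Most of the small differences had the same sign. Of the 23 probe sets, 15 were higher on average in ZnR mice and 8 lower, with a median of 0.07 log2 units, against 0.02 over all probe sets tested. In 9 of the 23, or 39.1%, all 3 ZnR mice lay above all 3 control mice, against 13.1% of all probe sets, and in 1 they lay below, against 10.6%. With each gene read by its brightest tested probe set, 8 of 9 genes were higher on average, against 57.6% of 11749 genes, and in 6 (Gclc, Gpx1, Txnrd1, Srxn1, Sod1 and Sod2) the diets did not overlap, against 16.5%. The median over the 9 was 0.13, against 0.03 over all 11749 genes. Among the 3849 genes whose brightest probe set averaged above 9, a bound chosen after the values were seen, the median was 0.01 and 16.5% had all ZnR mice above. All probe sets came from the same 6 arrays, and probe sets of a gene measure the same RNA, so these counts describe the arrays and carry no test.

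**Figure D1:**
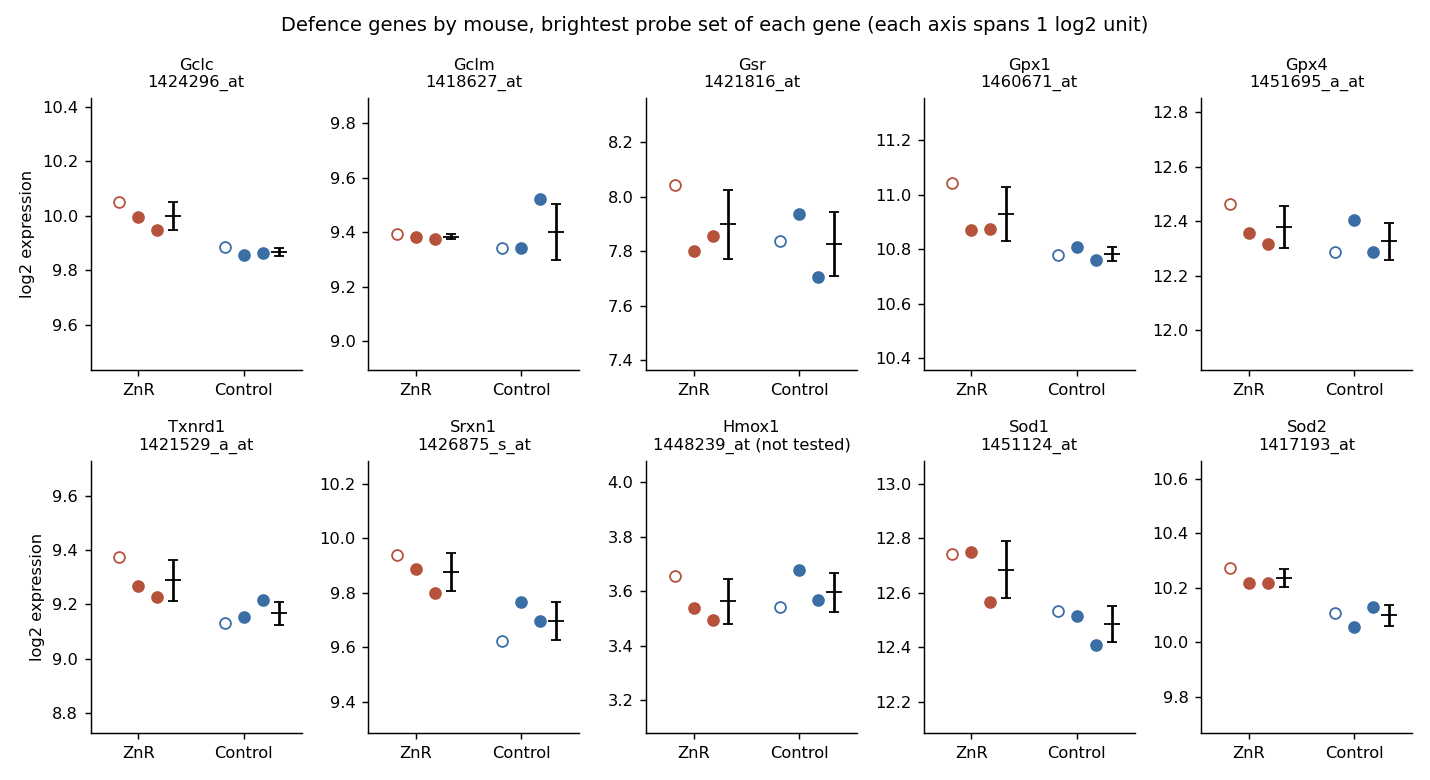
Log2 expression (vertical axes, each spanning 1 log2 unit) of the brightest probe set of each of the 10 genes, with 1 point per mouse, ZnR left and control right. Bars give mean ± SD (n = 3), and open points are ZnR mouse 3 and control mouse 1, the arrays with low 18S signal. Gclc, Gpx1, Txnrd1, Srxn1, Sod1 and Sod2 do not overlap between diets, while Gclm, Gsr, Gpx4 and Hmox1 do.

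Glutathione is made in 2 steps, the first of which is run by glutamate-cysteine ligase. Gclc, which encodes its catalytic subunit, measured 10.05, 9.99 and 9.95 log2 units in ZnR mice 3, 7 and 11, against 9.88, 9.85 and 9.86 in control mice 1, 5 and 9 (probe set 1424296_at). Its second probe set (1455959_s_at) measured 8.73, 8.78 and 8.81 in ZnR mice, against 8.54, 8.64 and 8.59 in control mice. Both probe sets put every ZnR mouse above every control mouse. The log2 differences were 0.13 ± 0.08 (SE, interval -0.05 to 0.31, limma adjusted p = 0.450) and 0.18 ± 0.08 (interval -0.0004 to 0.37, adjusted p = 0.296). Gclm, which encodes the modifier subunit of the same ligase, was slightly lower on average in both of its probe sets. It measured 9.39, 9.38 and 9.37 in ZnR mice, against 9.34, 9.34 and 9.52 in control mice (1418627_at), and 8.54, 8.69 and 8.76 in ZnR mice, against 8.65, 8.75 and 8.79 in control mice (1439050_at). Control mouse 9 was the highest mouse in both, and the diets overlapped. The differences were -0.02 (interval -0.22 to 0.18) and -0.07 (-0.29 to 0.15), with limma adjusted p of 0.943 and 0.766.

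Gsr encodes glutathione reductase, which renews reduced glutathione with NADPH, and its probe sets differed in sign. Probe set 1421816_at measured 8.04, 7.80 and 7.85 in ZnR mice, against 7.84, 7.94 and 7.71 in control mice, and the diets overlapped. Probe set 1421817_at measured 7.16, 7.10 and 6.90 in ZnR mice, against 7.28, 7.28 and 7.25 in control mice. It was the only tested probe set among the 23 with every ZnR mouse below every control mouse. The differences were 0.07 ± 0.10 (SE, adjusted p = 0.779) and -0.22 ± 0.09 (interval -0.44 to 0.004, limma adjusted p = 0.304), so no direction can be given for Gsr.

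The 2 peroxidases, both selenoproteins, use glutathione to reduce peroxides. Gpx1, the abundant cytosolic and mitochondrial enzyme, measured 11.04, 10.87 and 10.88 in ZnR mice, against 10.78, 10.81 and 10.76 in control mice. All ZnR mice lay above all control mice, with mouse 3 apart from the other ZnR mice by more than their difference from the controls. The difference was 0.15 ± 0.09 (SE, interval -0.05 to 0.35, limma adjusted p = 0.439). Gpx4, which reduces lipid hydroperoxides in membranes and guards cells against ferroptosis, measured 12.46, 12.36 and 12.32 in ZnR mice, against 12.29, 12.40 and 12.29 in control mice. The diets overlapped and the difference was 0.05 (interval -0.15 to 0.25, adjusted p = 0.809). Its other probe set (1456193_x_at, a kind that may cross-hybridise) differed by -0.07 (-0.26 to 0.11).

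Txnrd1 encodes cytosolic thioredoxin reductase, also a selenoprotein. Its brightest probe set measured 9.37, 9.27 and 9.23 in ZnR mice, against 9.13, 9.15 and 9.22 in control mice. The groups did not overlap, though ZnR mouse 11 and control mouse 9 nearly met. The difference was 0.12 ± 0.08 (SE, interval -0.07 to 0.32, limma adjusted p = 0.516). The 2 dimmer probe sets, with means from 4.18 to 5.43, overlapped and differed by -0.03 and -0.08.

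Srxn1 encodes sulfiredoxin, which repairs overoxidised peroxiredoxins, and its probe set 1451680_at had the largest difference of the 23. This probe set measured 7.75, 7.52 and 7.52 in ZnR mice, against 7.24, 7.32 and 7.43 in control mice. The brightest, 1426875_s_at, measured 9.94, 9.89 and 9.80 in ZnR mice, against 9.62, 9.76 and 9.69 in control mice. Neither overlapped between diets, and in both ZnR mouse 3 was highest and control mouse 1 lowest. The differences were 0.26 ± 0.10 (SE, interval 0.03 to 0.50, unadjusted p = 0.0337, limma adjusted p = 0.247) and 0.18 ± 0.09 (-0.02 to 0.38, adjusted p = 0.340). The remaining tested probe set (1425351_at) was 0.17 higher on average, with the mice of the diets overlapping. The untested Srxn1 probe set lay between 3.52 and 3.83 in ZnR mice, against 3.59 and 3.79 in control mice.

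Hmox1 encodes haem oxygenase 1, the inducible enzyme that breaks down haem and a widely used readout of Nrf2 activity. Its probe set measured 3.66, 3.54 and 3.49 in ZnR mice, against 3.54, 3.68 and 3.57 in control mice. All 6 values lay under the level of 4 and overlapped, so Hmox1 was not tested under the level filter. Without that filter all 26 probe sets of the 10 genes were tested and none passed (lowest limma adjusted p = 0.327). A fall of Hmox1 could not be detected so near the floor.

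Sod1, the cytosolic copper and zinc enzyme, measured 12.74, 12.75 and 12.57 in ZnR mice, against 12.53, 12.52 and 12.41 in control mice (probe set 1451124_at). All ZnR mice lay above all control mice, ZnR mouse 11 by the least. The difference was 0.20 ± 0.09 (SE, interval -0.01 to 0.41, limma adjusted p = 0.320). A second bright probe set (1459976_s_at) measured 11.89, 12.11 and 11.85 in ZnR mice, against 11.82, 11.80 and 11.93 in control mice, with overlap and a difference of 0.10 (-0.14 to 0.33). The other 2 tested probe sets, with means of 5.74 or less, differed by -0.04 and -0.08 and overlapped. The untested Sod1 probe set lay between 3.06 and 3.10 in ZnR mice, against 3.01 and 3.05 in control mice.

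Sod2, the mitochondrial manganese enzyme, measured 10.27, 10.22 and 10.22 in ZnR mice, against 10.11, 10.06 and 10.13 in control mice (1417193_at). Probe set 1448610_a_at measured 10.22, 10.26 and 10.09 in ZnR mice, against 10.00, 10.08 and 10.03 in control mice. Neither overlapped between diets, and the differences were 0.14 ± 0.08 (SE, interval -0.04 to 0.32, limma adjusted p = 0.425) and 0.15 ± 0.08 (-0.05 to 0.35, adjusted p = 0.417). The remaining probe sets overlapped, with differences of 0.07 (1454976_at) and 0.02 (1417194_at). The interval of 1454976_at, -0.25 to 0.40, was the widest of the 4.

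**Figure D2:**
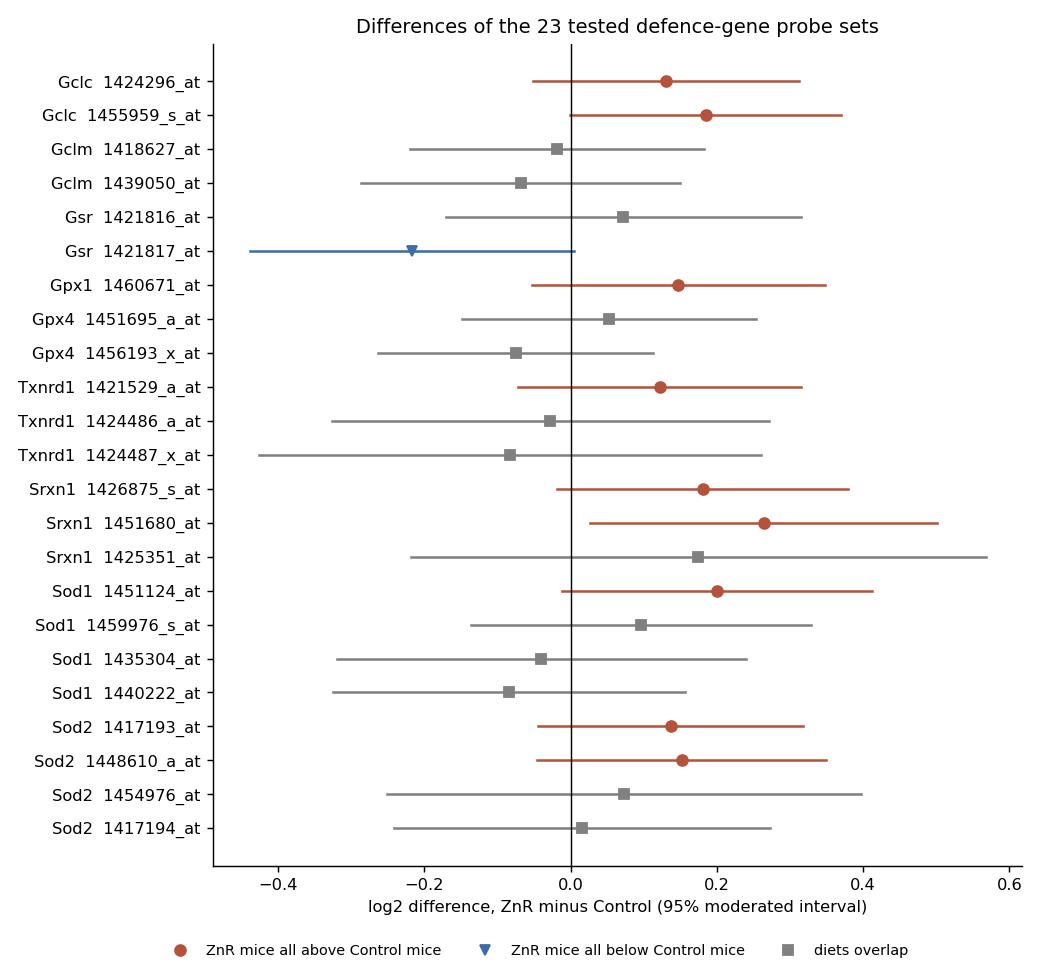
Log2 difference, ZnR minus control (horizontal axis), with its 95% moderated interval for the 23 tested probe sets, named on the vertical axis. Circles are probe sets with all ZnR mice above all control mice, the triangle is Gsr 1421817_at with all ZnR mice below, and squares overlap. The interval of Srxn1 1451680_at, 0.03 to 0.50, is the only one that leaves out 0.

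By 1 probe set a gene, the differences were higher within 1 pair of arrays than among the other mice. That pair holds 1 mouse per diet, and whether it accounts for the differences was not tested. The 18S ribosomal control probe sets averaged 8.44 in ZnR mouse 3 and 9.09 in control mouse 1, against 10.9 to 12.4 on the other 4 arrays, and this pair was treated as a possible batch. Read by 1 probe set each, the 9 genes had a median difference of 0.21 within this pair, with 9 of 9 above 0, and 0.09 among the other mice, with 7 of 9 above 0. Counted over their 23 tested probe sets, 16 of 23 were above 0 within the pair and 16 of 23 among the other mice, with medians of 0.17 and 0.06. Over all 25381 probe sets the medians were 0.04 within the pair and 0.003 among the other mice. ZnR mouse 3 was the highest of the 6 mice in 7 of the 9 genes. The difference of Srxn1 (1426875_s_at) was 0.31 within the pair and 0.11 among the others, and that of Gpx1 was 0.26 and 0.09. Sod1 (1451124_at), at 0.21 and 0.19, and Sod2 (1417193_at), at 0.17 and 0.12, differed less between pair and others, and Gclm and Gpx4 were at -0.05 and -0.01 among the other mice. The 3′ minus 5′ signal of the Gapdh control probe sets, a sign of RNA integrity, was 0.12 to 0.26 in ZnR mice and 0.16 to 0.20 in control mice, and overlapped.

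**Figure D3:**
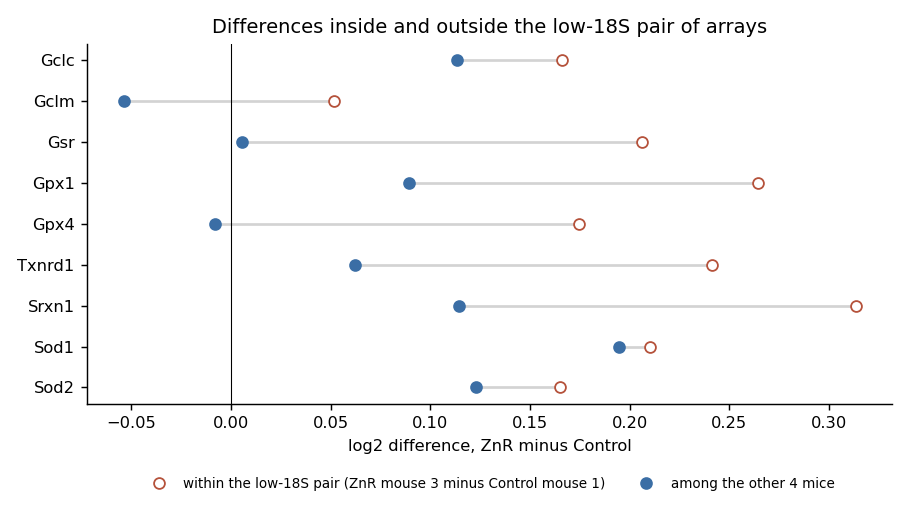
Log2 difference, ZnR minus control (horizontal axis), of the brightest probe set of 9 genes (vertical axis). Open points are ZnR mouse 3 minus control mouse 1, and filled points are the mean difference among the other 4 mice. The open point lies right of the filled point for all 9 genes, closest for Sod1 at 0.21 and 0.19.

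The other genes of the pathway were read from a list of 62 genes, of which 53 had a tested probe set annotated to that gene alone. A gene could lack one by level or by annotation, and these were not told apart. The genes without such a probe set were Glrx3, Prdx1, Prdx5, Prdx6, Sod3, Maff, Ftl1, G6pdx and Osgin1, and the group medians do not cover them. With each gene read by its brightest tested probe set, 2 of the 53 rose, 0 fell and 51 did not pass. Of all 11749 genes 1.92% passed, 0.655% as higher and 1.27% as lower. The median difference was 0.07, against 0.03 over all genes. Mgst1, which encodes a membrane-bound glutathione transferase and peroxidase, measured 9.53, 9.54 and 9.61 in ZnR mice, against 8.93, 8.93 and 9.13 in control mice. The groups were far apart relative to their spread, and Mgst1 rose 1.48-fold (0.57 ± 0.09 SE, limma adjusted p = 0.0373). Txnip, which encodes the thioredoxin-binding protein that inhibits thioredoxin, measured 7.25, 7.36 and 7.42 in ZnR mice, against 6.41, 6.81 and 6.60 in control mice. It rose 1.67-fold (0.74 ± 0.12 SE, limma adjusted p = 0.0373), and its other probe set was higher by 0.58 ± 0.12 with adjusted p = 0.0636. Both calls were lost when any 1 mouse was left out, with adjusted p from 0.0546 to 0.147 for Mgst1 and from 0.0716 to 0.119 for Txnip. Within the low-18S pair the differences were 0.60 for Mgst1 and 0.84 for Txnip, and among the other mice 0.55 and 0.69.

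Each role group was described by its counts. Of 16 glutathione peroxidase, transferase and glutaredoxin genes, Mgst1 rose and 15 did not pass, 12 were higher on average, and the median of 0.22 was the highest of the 5 groups. In 9 of the 16 all ZnR mice lay above all control mice, against 16.5% of genes, and in 3 they lay below, against 11.1%. The same counts, above and below, were 3 and 0 of 9 thioredoxin and peroxiredoxin genes and 1 and 1 of 9 synthesis and supply genes. They were 0 and 0 of 3 superoxide and peroxide removal genes and 2 and 2 of 16 Nrf2 regulators and targets. Over all 53 genes they were 15 and 6. The transferase genes Gstm7 and Gstk1, named after their values were seen, were 0.61 and 0.57 higher with limma adjusted p of 0.0572 and 0.0514. The selenoprotein gene Gpx3, which encodes the secreted plasma peroxidase, was 0.88 higher (limma adjusted p = 0.265). It measured 8.255, 8.068 and 8.219 in ZnR mice, against 6.417, 7.502 and 7.998 in control mice. Gpx8, an endoplasmic reticulum peroxidase gene, was 0.61 higher (limma adjusted p = 0.201). It measured 6.06, 5.77 and 6.17 in ZnR mice, against 4.91, 5.52 and 5.73 in control mice. In both genes control mouse 1, of the low-18S pair, was the lowest of all mice. How far that array sets these differences was not tested. Of 9 thioredoxin and peroxiredoxin genes Txnip rose and 8 did not pass (median 0.07).

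In the remaining groups no gene passed by its brightest tested probe set. The 9 genes of glutathione synthesis and supply had a median of -0.08. The smallest p among them was that of Ggt7, of the gamma-glutamyltransferase family, at 8.57, 8.41 and 8.54 in ZnR mice, against 8.92, 8.84 and 8.97 in control mice (-0.40 ± 0.09 SE, limma adjusted p = 0.0722). The 3 genes of superoxide and peroxide removal had a median of 0.10, led by Park7, which encodes the redox-sensitive protein DJ-1 (0.13 ± 0.11 SE, adjusted p = 0.601). The 16 Nrf2 regulators and other Nrf2 target genes had a median of 0.02, with 10 higher and 6 lower on average. The smallest p was that of Me1, which encodes cytosolic malic enzyme, a source of NADPH. Its brightest probe set was -0.38 ± 0.10 (SE, limma adjusted p = 0.128), and its other probe set (1416632_at) fell, with 8.65, 8.71 and 8.55 in ZnR mice, against 9.31, 9.21 and 9.27 in control mice (-0.63 ± 0.08 SE, adjusted p = 0.0242). That call too was lost when any 1 mouse was left out (adjusted p from 0.0549 to 0.0983), and the difference was -0.67 within the low-18S pair and -0.61 among the other mice. The gene of Nrf2 itself, Nfe2l2, was 0.18 higher (adjusted p = 0.389) and Keap1, its inhibitor, -0.07 (adjusted p = 0.729), both named after their values were seen and both overlapping between diets. Counted over all 87 tested probe sets of the 53 genes, 2 rose and 1 fell.

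**Figure D4:**
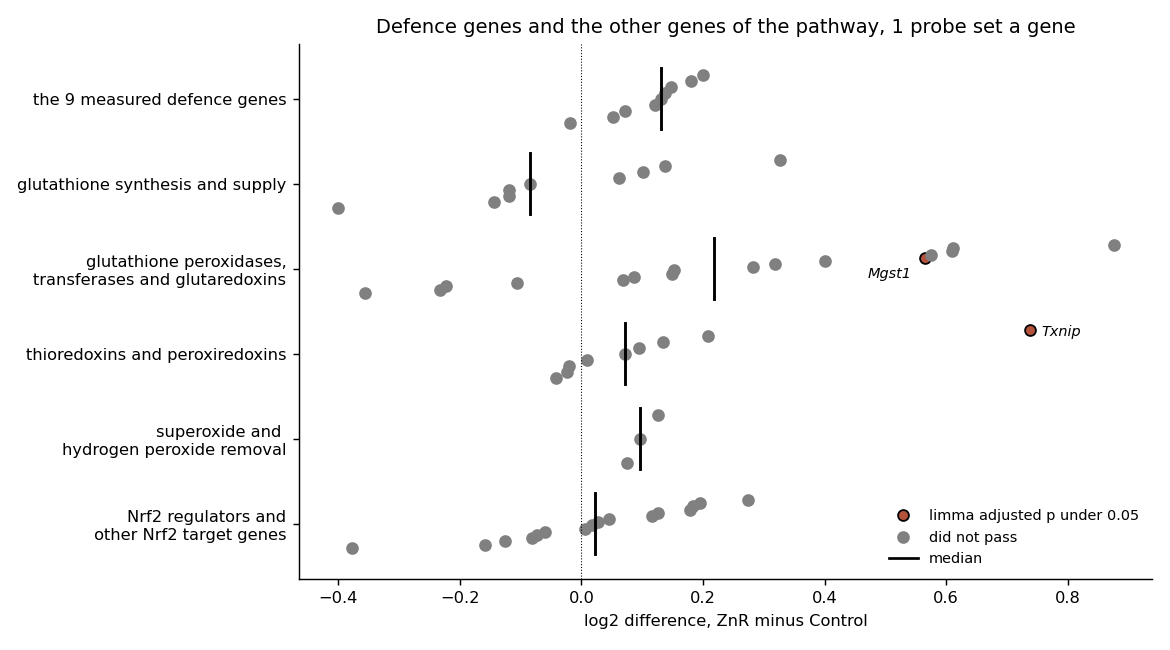
Log2 difference, ZnR minus control (horizontal axis), of each gene by 1 probe set, for the 9 tested defence genes and the 5 role groups of other pathway genes. Coloured points passed the test, and black bars are medians. Mgst1 at 0.57 and Txnip at 0.74 are the only genes past the threshold, and Gpx3 at 0.88 lies farthest right without passing. For Gpx3, control mouse 1 of the low-18S pair is the lowest mouse, at 6.417.

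Markers of several cell types moved on the same arrays, and their part in these results was not tested. Of 9 astrocyte markers measured, all were higher on average and 1 passed, with a mean level of 10.96 to 11.08 in ZnR mice, against 10.71 to 10.84 in control mice. The 7 choroid plexus and ependyma markers measured were all higher on average, with a mean level of 5.45 to 5.65 in ZnR mice, against 4.06 to 4.96 in control mice. Of them 2 passed the threshold, Clic6 and Tmem212. The choroid plexus genes Ttr and Kl were dim and did not pass (limma adjusted p = 0.529 and 0.366). Ttr averaged 4.43 in ZnR mice and 3.77 in control mice, with overlap, and Kl 4.70 and 4.44. The 4 leptomeningeal markers measured were all higher with none past the threshold, at 6.29 to 7.47 in ZnR mice, against 5.67 to 6.54 in control mice. The 7 oligodendrocyte markers measured were all higher with none past the threshold (median 0.36), at 10.7 to 11.4 in ZnR mice, against 10.6 to 10.7 in control mice. Endothelial markers were higher in 5 of 6 and microglial markers lower in 6 of 7, with none past the threshold and medians of 0.10 and -0.10. Cortical excitatory neuron markers were present in every mouse but lower in ZnR mice, with 5 of 6 past the threshold and a mean level of 9.39 to 9.60 in ZnR mice, against 10.3 to 10.5 in control mice. Striatal markers were higher in 7 of 7, with 2 past the threshold, at 11.21 to 11.48 in ZnR mice, against 10.45 to 10.99 in control mice. They were bright in every mouse, as with Gpr6 at 10.8 to 10.9 in ZnR mice, against 10.2 to 10.4 in control mice, so both cortical and striatal markers were present in tissue labelled as prefrontal cortex. Of 6 genes listed as interneuron markers, 3 were higher on average, namely Gad1, Gad2 and Slc32a1, which inhibitory neurons of the striatum also express. The other 3 (Sst, Vip and Pvalb) were lower on average. The median of -0.008 therefore mixes markers of unlike cells. Vip fell, with 8.60 to 8.98 in ZnR mice, against 9.67 to 9.91 in control mice (limma adjusted p = 0.0208), and 5 did not pass. Those 5 were Slc32a1 at 0.56 (limma adjusted p = 0.0607), Gad2 at 0.39 (0.119), Gad1 at 0.12 (0.615), Sst at -0.13 (0.530) and Pvalb at -0.70 (0.255). Of 72 listed markers 59 had a tested probe set annotated to that gene alone. Those without one included the choroid plexus gene Folr1, the leptomeningeal genes Lum and Col1a1 and all 5 erythroid genes.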

How the data were processed

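From each of 6 mice, 500 ng of total RNA was labelled with an Affymetrix 3′ IVT kit for Mouse430_2 arrays. The authors deposited log2 expression values per probe set, for which the submitters' processing notes list R 2.15.1 and GCRMA 2.28.0. GCRMA makes the distributions of the arrays alike, so a change of total RNA cannot be seen, and it compresses values near the floor. No genome build is named for these values, and all 6 columns were used unaltered. Array medians ran from 4.46 to 4.52.

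The platform annotation gave a single symbol to 34958 probe sets, and 34754 of these were updated by Entrez identifier from a GRCm38.p6 gene table. The 64 array controls were dropped, and 25381 probe sets (56.4%) exceeded a log2 value of 4 on at least 3 arrays and were tested. The test was limma 3.58.1 under R 4.3.3 (lmFit, eBayes, 2-sided, no covariate), with moderated standard errors and 95% intervals. Folds are 2 to the power of the log2 difference. The diets share no mouse number, so nothing was paired. Where genes were counted, the tested probe set of a single symbol with the highest average stood for its gene.

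All 10 genes were described by every probe set, dim ones by their range or difference. Of the other pathway genes those past the threshold and the smallest p of each role group were named by rule. Further pathway genes were named after their values were seen. The members, lists and tests were chosen with earlier results of these data known. The 16 alternatives changed the level filter, the normalization, the variance prior (statmod 1.5.0 for the robust estimate), array weights, the mice, the low-18S pair and the unit adjusted over. When tested on simulated data, limma recovered 13 of 50 probe sets changed by 0.5 log2 units, 31 of 50 changed by 1, 44 of 50 by 1.5 and 47 of 50 by 2, and made 8 false calls over 25381. Plots were made with Python 3.11.15 and matplotlib 3.10.9.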

Additional observations from a re-analysis of the deposited data

How the results depend on the processing

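No probe set of the 10 genes passed the threshold under any of the 16 alternatives. Their lowest adjusted p was 0.0836, for Srxn1 1451680_at (0.27) with array weights, and ranged from 0.0836 to 0.443 over the alternatives. Over all probe sets 373 passed, but 916 with an intensity trend, 2003 with array weights, 1 without the low-18S pair (ZnR mouse 3 and control mouse 1) and 1 to 109 with 1 mouse left out. Calls higher in ZnR were 31.4% of the 373 and 30.2% after renewed quantile normalization or centring. They were 38.8% with an intensity trend, 45.4% with array weights, 45.8% with 1 probe set a gene, 37.5% when that pair was a block and 0 to 26.0% with 1 mouse left out.

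Of the other pathway genes, each read by its brightest tested probe set, 2 passed (Mgst1 and Txnip). The count was 5 with a level above 6 (Gstm7, Gstk1 and Ggt7 added), 5 with an intensity trend and 5 with 1 probe set a gene. It was 4 with the pair of low-18S arrays as a block and 9 with array weights (Gstm7, Gstk1, Ggt7, Me1, Glrx2, Mgst3 and Gstm1 added). It was 0 without the low-18S pair and 0 in each fit with 1 mouse left out. Without the low-18S pair Mgst1 was 0.55 (adjusted p = 0.169) and Txnip 0.69 (0.128).

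Signs near 0 turned in some settings, and the cause was not tested. With array weights the differences were Gclm 1418627_at 0.026, Gsr 1421816_at -0.016, Gpx4 1451695_a_at -0.014, Txnrd1 1424486_a_at 0.153, Txnrd1 1424487_x_at 0.016, Sod1 1435304_at 0.0457 and Sod2 1417194_at -0.0074. Without the low-18S pair they were Gpx4 1451695_a_at -0.0080, Txnrd1 1424486_a_at 0.0326 and Sod1 1435304_at 0.0554. With 1 mouse left out, ranges that crossed 0 were -0.0486 to 0.0407 for Gclm 1418627_at, -0.138 to 0.0815 for Txnrd1 1424486_a_at and -0.172 to 0.0844 for Txnrd1 1424487_x_at. They were -0.134 to 0.0657 for Sod1 1435304_at, -0.0588 to 0.189 for Sod2 1454976_at and -0.0895 to 0.0833 for Sod2 1417194_at. No paired analysis was possible because the diets share no mouse number. With 3 mice per diet the precision is limited, and members' intervals reached up to 0.57 log2 units.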

Other observations

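Of the 53 other pathway genes, 15 lay above the controls without overlap between diets, against 16.5% of all genes, and 6 below, against 11.1%. Only some of these are named here, all after their values were seen, so the names do not reflect those counts. The glutaredoxin genes Glrx and Glrx2, whose products remove glutathione from proteins, were -0.22 (limma adjusted p = 0.213) and -0.23 (0.176), and the membrane transferase gene Mgst3 was -0.36 (0.176). Oplah, which encodes 5-oxoprolinase of the glutathione cycle, was 0.33 (0.124) and Gstm1 was 0.40 (0.155). None of these 5 passed the threshold in the fit without array weights. With array weights Glrx2 (-0.26, adjusted p = 0.0463), Mgst3 (-0.39, 0.0410) and Gstm1 (0.39, 0.0452) passed.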
